A study of Harpegnathos saltator with 36 samples.

Results

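The insulin receptor genes of the ant Harpegnathos saltator, InR1 (LOC105185958) and InR2 (LOC105183944), were followed through the ovary and the central brain of gamergates, revertants, and workers. They were taken by gene identifier, without regard to their expression, and are 2 of the 12654 genes counted in each of 24 RNA-seq libraries. Each library held the polyA RNA of one tissue from a single ant that was about 6 months old, with 4 gamergates, 4 revertants, and 4 workers for each tissue. Gamergates were workers that had become egg-laying reproductives in a colony without a queen over 3 months, and the workers were their nonreproductive nestmates. Revertants were gamergates that had been isolated and then placed in a colony with established reproductive females, where they were policed and stopped laying. Revertants thus came from another colony than the other castes, and in comparisons with them colony and caste cannot be told apart. The ovary was taken whole and the brain without its optic lobes, and the fat body samples were not analysed here.

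Insulin receptors are receptor tyrosine kinases of the cell surface. When a secreted insulin-like peptide binds, the receptor phosphorylates itself and its substrates and passes the signal on through a phosphatidylinositol 3-kinase and AKT branch, which keeps the transcription factor FOXO out of the nucleus, and a Ras and MAPK branch. In insects this pathway ties nutrition to growth, egg production, and life span. Drosophila has a single canonical insulin receptor gene, whereas many other insects carry a pair. Gene names follow the study. RefSeq gives the symbol InR-2 to LOC105185958, the gene called InR1 here, and names LOC105183944 by its identifier alone.

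Total counts ranged from 1663266 to 23882325 in the ovary and from 1339043 to 12917125 in the brain. All 4 gamergate ovaries exceeded 3500000 counts, as did revertant ovaries 2 and 3 and worker ovary 3. In the brain all 4 revertants and workers 1 and 3 exceeded this size, and all 4 gamergates and workers 2 and 4 fell short of it. Library size and caste were therefore tied, most of all between gamergate and revertant brains. The labels place the ovary libraries on one sequencing lane and the brain libraries on another, so tissue and lane cannot be told apart. Germ line markers (vas, nanos, and a piwi-like gene) summed to 889 to 1596 CPM (counts scaled to a common library size) in ovaries and to 137 to 202 CPM in brains. The 8 neuron markers summed to 148 to 227 CPM in ovaries, where VGlut, the vesicular glutamate transporter, was at 0 in gamergates and revertants, and to 2983 to 5236 CPM in brains. The tissue labels thus matched the sums of the markers. Between ovary and brain 3 of 3 germ line markers were called higher in the ovary in revertants and in workers. In gamergates 2 were called higher and 1 lower. In either direction 65.4%, 57.7%, and 84.8% of all genes were called in revertants, workers, and gamergates.

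The ratio of InR1 to InR2 counts within a library separated the gamergates from both other castes in both tissues. It lay between 1.19 and 1.53 in the 8 gamergate libraries, against 0.765 to 1.12 in the 16 libraries of revertants and workers. How many other gene pairs separate the castes in this way was not computed, so the separation cannot be called particular to the receptors. Of single genes, 58.3% were called between gamergates and workers in the ovary and 1.05% in the brain. Between gamergates and revertants 57.8% were called in the ovary and 57.4% in the brain. Ovary and brain libraries may come from the same ants, so the tissues may not be independent. The scaling of a library cancels in this ratio, because both counts come from it, but other effects of library size need not cancel. In revertant ovaries the ratio fell from 1.12 at 1663266 counts to 0.765 at 7391217 counts. Worker ovaries went the other way, from 0.927 at 1863023 counts to 1.07 at 7519671 counts. No gamergate brain shared a size class with a revertant brain, and the part of library size was not tested there. Since exonic lengths were not used, a ratio of 1 does not mean equal numbers of transcripts, and only differences between libraries can be read from it.

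**Figure D1:**
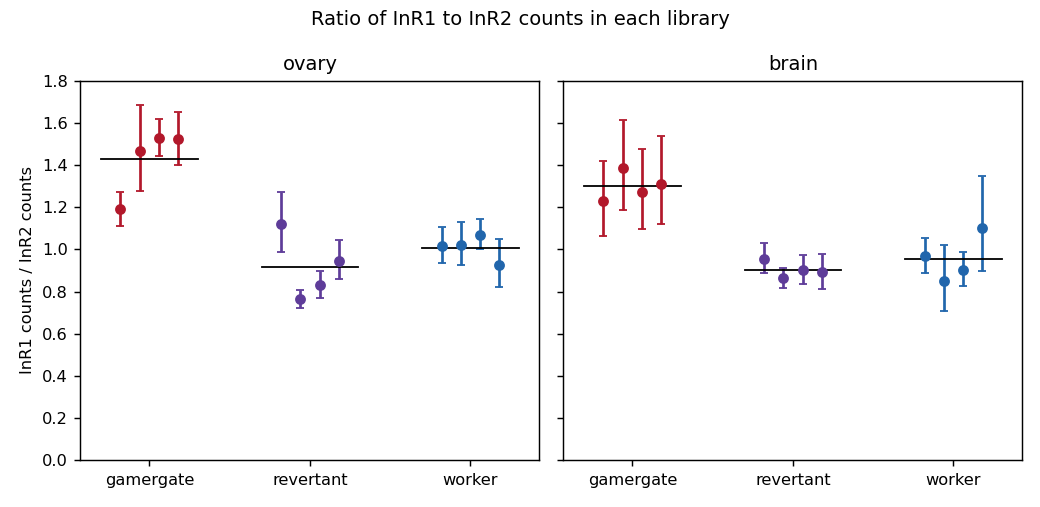
The plot shows the ratio of InR1 to InR2 counts (vertical axis, no unit) in each library of the ovary (left) and brain (right), with 95% intervals of counting error from Wilson intervals of the InR1 share. Horizontal lines are means of 4 libraries. The lowest gamergate, ovary 1 at 1.19, lies above the highest of the other castes, revertant ovary 1 at 1.12.

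In the ovary the ratio was 1.19, 1.47, 1.53, and 1.52 in the gamergates, with a mean of 1.43 ± 0.16 (SD, n = 4). It was 1.12, 0.765, 0.832, and 0.947 in the revertants, with a mean of 0.916 ± 0.156 (SD, n = 4), and 1.02, 1.02, 1.07, and 0.927 in the workers, with a mean of 1.01 ± 0.06 (SD, n = 4). No gamergate ovary overlapped with another caste, and revertants and workers overlapped. The mean log2 ratio of gamergates exceeded that of workers by 0.49 and that of revertants by 0.65.

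In the brain the ratio was 1.23, 1.39, 1.27, and 1.31 in the gamergates, with a mean of 1.3 ± 0.07 (SD, n = 4). It was 0.956, 0.863, 0.901, and 0.891 in the revertants, with a mean of 0.903 ± 0.039 (SD, n = 4), and 0.967, 0.848, 0.902, and 1.10 in the workers, with a mean of 0.955 ± 0.109 (SD, n = 4). Gamergate brains again stood apart from the others, by 0.45 on the log2 scale from workers and by 0.52 from revertants.

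For each of these 4 differences the exact two-sided permutation test gave p = 0.0286, the smallest value that 4 libraries against 4 can give. After Benjamini-Hochberg adjustment over the 9 comparisons of the ratio, these became 0.0643, which does not pass 0.05. Between revertants and workers the mean log2 ratio differed by −0.15 in the ovary (exact permutation p = 0.286) and by −0.07 in the brain (exact permutation p = 0.486). Between ovary and brain of one caste it differed by 0.13 in gamergates, 0.01 in revertants, and 0.08 in workers, with exact permutation p values of at least 0.229. Counting error alone, as the standard error of a log2 ratio, was 0.04 to 0.15.

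The separation was also seen within a size class. Of the brains under 3500000 counts, the 4 gamergates exceeded workers 2 and 4 by 0.42 on the log2 scale with no overlap. Of the ovaries over it, the 4 gamergates exceeded revertants 2 and 3 by 0.83 with no overlap. Sizes still differed there, at 5354569 to 23882325 counts in gamergates against 7391217 and 5636393 in these revertants. Revertant ovaries 1 and 4, left out of this class, had higher ratios of 1.12 and 0.947. The only worker ovary of that size, worker 3, had a ratio of 1.07. These subsets are too small to pass 0.05, since the smallest p for 4 libraries against 2 is 0.133 (exact permutation test, two-sided).

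Both receptor mRNAs were less abundant in the gamergate ovary. InR1 stood at 130, 94.9, 138, and 116 CPM in gamergate ovaries, against 290, 304, 216, and 373 CPM in revertant ovaries and 285, 307, 251, and 236 CPM in worker ovaries. Every gamergate lay below every ant of the other castes, and revertants and workers overlapped. The log2 fold change of InR1 was −1.20 (standard error 0.15) in gamergates against workers and −1.34 (standard error 0.20) in gamergates against revertants, with adjusted p values of 2.5e-04 and 6.2e-04 in edgeR's quasi-likelihood test.

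InR2 had the larger fold changes. It stood at 109, 64.7, 90.2, and 76.0 CPM in gamergate ovaries, against 258, 397, 260, and 394 CPM in revertant ovaries and 281, 300.4, 234, and 255 CPM in worker ovaries. Gamergates again did not overlap with the other castes. The log2 fold change was −1.68 (standard error 0.17) against workers and −1.98 (standard error 0.23) against revertants, with adjusted p values of 1.2e-04 and 1.9e-04 in edgeR's test. The exact permutation test over 8 libraries gave p = 0.0286 for each receptor in both comparisons, or 0.0686 after adjustment over the 12 receptor comparisons within tissues.

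These calls stood among many. In the ovary 58.3% of the 9267 genes tested passed an adjusted p of 0.05 between gamergates and workers, and 57.8% of 9228 between gamergates and revertants. Of all genes tested, 13.5% had a more negative fold change than InR1 in gamergates against revertants, and 7.5% a more negative one than InR2. The 11 muscle markers were also lower in gamergate ovaries. Their summed level was 335 to 377 CPM in gamergate ovaries, 631 to 2154 CPM in revertant ovaries, and 838 to 4571 CPM in worker ovaries. In gamergates against workers 11 of 11 were called lower (28.9% of all genes), with a median log2 fold change of −3.80. Against revertants 9 of 10 were called lower (29% of all genes). Between revertants and workers the muscle median was −1.19 with 0 of 10 called, whereas InR1 and InR2 were at 0.13 and 0.29. Germ line markers summed to 889 to 1020 CPM in gamergate ovaries, 1047 to 1168 CPM in revertants, and 1121 to 1596 CPM in workers. The 8 fat body markers summed to 1335 to 4030 CPM in gamergate ovaries, 423 to 10664 CPM in revertants, and 563 to 4826 CPM in workers. Against workers 1 of 7 was called higher and 2 lower (29.4% and 28.9% of all genes). Against revertants 1 of 6 was called higher and 1 lower (28.7% and 29% of all genes). The part of these cell types in the receptor values was not tested. In bulk tissue fewer cells of a type and less RNA per cell cannot be told apart.

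Between revertant and worker ovaries no difference passed the test. The log2 fold change was 0.13 for InR1 (95% interval −0.31 to 0.57) and 0.29 for InR2 (95% interval −0.16 to 0.74), each with an adjusted p of 1.00 in edgeR's test. None of the 8667 genes tested was called here (0%). By edgeR 377 had an unadjusted p under 0.05, and DESeq2 called 29 genes.

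**Figure D2:**
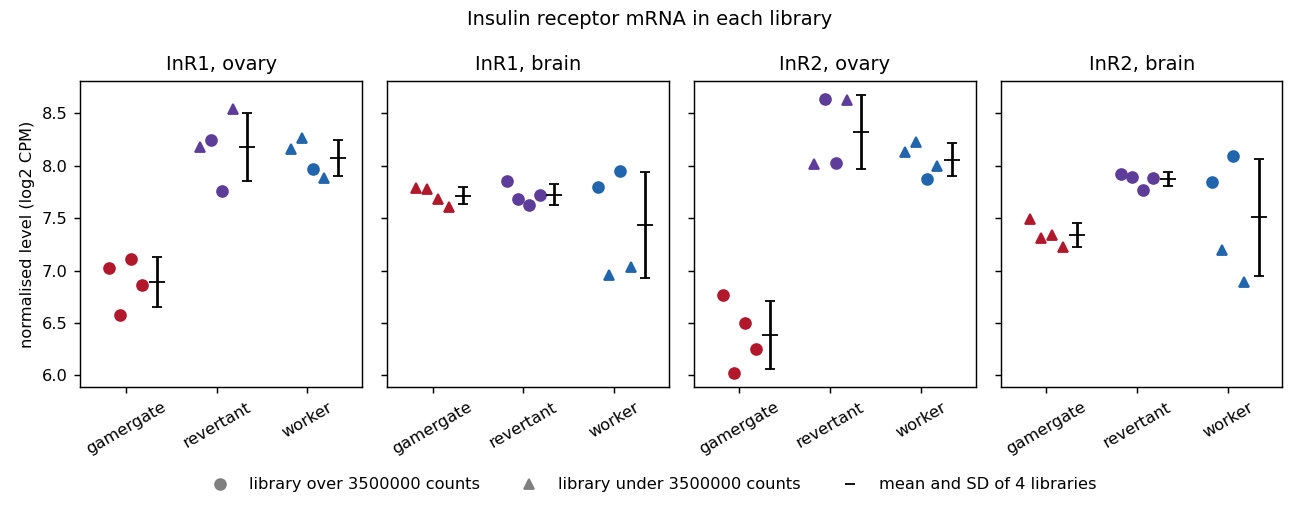
The 4 panels plot the normalised level (log2 CPM) of InR1 and InR2 in each library of the ovary and the brain, by caste, with the mean and SD of 4 libraries in black. Circles are libraries over 3500000 counts and triangles those under it. Gamergate ovaries lie lowest for both receptors (means of 6.89 for InR1 and 6.39 for InR2), and worker brains split by library size.

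The brain showed another pattern. InR1 stood at 220, 219, 205, and 195 CPM in gamergate brains, against 232, 205, 197, and 211 CPM in revertant brains and 222, 124, 246, and 130 CPM in worker brains. The gamergates and revertants lay within one narrow range, and of the workers 1 lay within it, 1 above it, and 2 below it. InR1 did not pass the test in gamergates against workers (log2 fold change 0.20, 95% interval −0.26 to 0.67, adjusted p = 0.636 in edgeR's test) or against revertants (−0.01, 95% interval −0.17 to 0.15, adjusted p = 0.898).

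InR2 stood at 179, 158, 161, and 149 CPM in gamergate brains, against 242, 238, 218, and 236 CPM in revertant brains and 229, 146, 273, and 118 CPM in worker brains. All gamergates lay below all revertants, and workers overlapped with both. InR2 was called lower in gamergates than in revertants, at −0.53 on the log2 scale (standard error 0.07, adjusted p = 1.2e-04 by edgeR), in a comparison that called 57.4% of 8987 genes. Against workers it did not pass (−0.26, 95% interval −0.76 to 0.25, adjusted p = 0.578), where 1.05% of 8481 genes did.

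Receptor levels in the worker brain went with library size. Workers 2 and 4, at 1517625 and 1339043 counts, were the lowest of all brains for both receptors, at 124 and 130 CPM for InR1 and 146 and 118 CPM for InR2. Among the 6 brains under 3500000 counts, InR1 was called higher in gamergates (log2 fold change 0.72, adjusted p = 0.0012 in edgeR's test), whereas InR2 differed by 0.29 and did not pass (adjusted p = 0.151). When all 12 brains were fitted with a term for size class, the fold change between gamergates and revertants became 0.87 for InR1 (adjusted p = 0.0075) and 0.39 for InR2 (adjusted p = 0.213), so that the call of InR2 was lost and its direction turned. As no gamergate brain shared a size class with a revertant brain, the size correction in those values came from the worker brains alone.

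**Figure D3:**
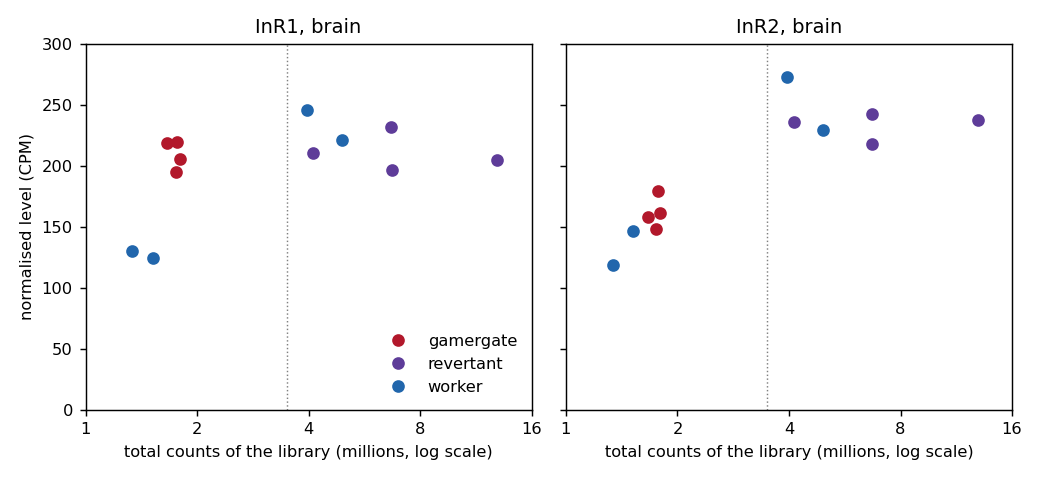
Each point is a brain library, with its total counts on the horizontal log axis and its level of InR1 (left) or InR2 (right) in CPM on the vertical axis. The dotted line marks 3500000 counts. The 4 gamergates at 195 to 220 CPM of InR1 lie above the 2 worker brains of like size, at 124 and 130 CPM.

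Marker sums also differed between groups of brains, where caste and library size were tied. Neuron markers summed to 2983 to 3223 CPM in gamergate brains, 4222 to 5236 CPM in revertants, and 3036 to 4687 CPM in workers. In gamergates against revertants 8 of 8 were called lower (29.9% of all genes), with a median log2 fold change of −0.47. Between gamergates and workers 0 of 8 neuron markers were called (1.05% of all genes). The 8 fat body markers, led by vitellogenin and apolipophorin, summed to 31436 to 85182 CPM in gamergate brains, 16672 to 21410 CPM in revertants, and 14632 to 21834 CPM in workers. Of the 6 tested between gamergates and revertants 3 were called higher (27.4% of all genes), among them Vg (vitellogenin) at 4.54 on the log2 scale. Apoltp was called lower at −1.30 (29.9% of all genes were lower). Between gamergates and workers 2 of 5 fat body markers were called higher and 0 lower (0.33% and 0.719% of all genes). The part of these cell types in the receptor levels was not tested.

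Between revertant and worker brains the log2 fold change was 0.21 for InR1 (adjusted p = 0.543 in edgeR's test) and 0.27 for InR2 (adjusted p = 0.466). None of 9360 genes was called (0%). At an unadjusted p under 0.05 edgeR had 1521, and DESeq2 called 58. Among the 6 brains over 3500000 counts, both differences had the opposite sign, at −0.14 and −0.10, and did not pass.

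The effect of caste differed between the tissues. The log2 fold change of gamergates against workers in the ovary minus that in the brain was −1.35 for InR1 and −1.36 for InR2 (edgeR's test of the interaction between caste and tissue, adjusted p = 0.0018 and 0.0032). Against revertants the difference was −1.14 for InR1 and −1.26 for InR2 (adjusted p = 6.1e-04 and 8.7e-04). These interactions were called for 35.8% of 9674 and 42.2% of 10131 genes, and both comparisons share the gamergate libraries. For revertants against workers the difference was −0.08 for InR1 and 0.03 for InR2, and edgeR called none of 9798 genes (0%), with 662 at an unadjusted p under 0.05 and 13 called by DESeq2.

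Within a caste, ovary and brain differed in the gamergates. There the log2 fold change of ovary over brain was −0.95 for InR1 (standard error 0.11, adjusted p = 6.8e-06 in edgeR's test) and −1.07 for InR2 (standard error 0.14 and adjusted p = 2.1e-05), in a comparison that called 84.8% of 9370 genes. In revertants the difference between ovary and brain was 0.24 for each receptor (95% intervals −0.14 to 0.62 for InR1 and −0.17 to 0.65 for InR2). In workers it was 0.45 for InR1 (95% interval −0.09 to 1.00) and 0.35 for InR2 (95% interval −0.21 to 0.92). Neither caste passed the test for either receptor, and these tests called 65.4% of genes in revertants and 57.7% in workers. The fits between tissues did not pair the libraries of an ant.

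**Figure D4:**
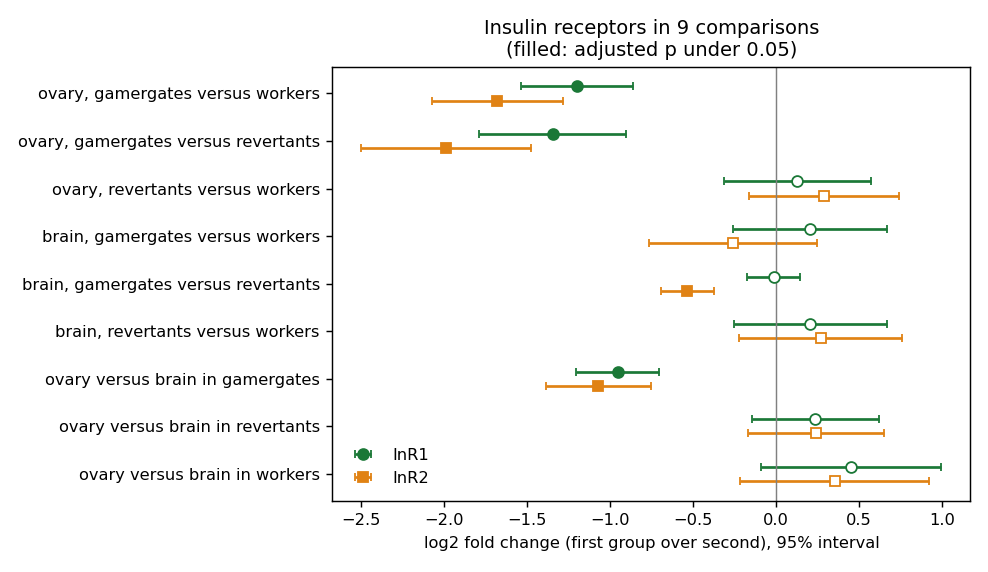
Points are log2 fold changes of InR1 (circles) and InR2 (squares) in 9 comparisons, with the first named group over the second, and bars are 95% intervals of edgeR's quasi-likelihood fit. Filled points passed an adjusted p of 0.05. InR2 lies left of InR1 in all 4 comparisons of gamergates with another caste, at −1.68, −1.98, −0.26, and −0.53.

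With all 24 libraries on one scale, the order of the 6 groups can be read for each receptor. InR1 was highest in revertant ovaries (8.13 ± 0.32 log2 CPM, SD, n = 4), followed by worker ovaries (8.01 ± 0.18), gamergate brains (7.76 ± 0.08), revertant brains (7.75 ± 0.10), worker brains (7.46 ± 0.50), and gamergate ovaries (6.90 ± 0.27). InR2 was highest in revertant ovaries (8.27 ± 0.38), followed by worker ovaries (8.0 ± 0.14), revertant brains (7.90 ± 0.07), worker brains (7.54 ± 0.54), gamergate brains (7.39 ± 0.11), and gamergate ovaries (6.40 ± 0.35). Neighbours in both orders overlapped in their ranges, with the exception of gamergate ovaries below gamergate brains for InR2. The gamergate brain was the third highest for InR1 and the fifth highest for InR2.

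The genes whose pattern over the 24 libraries was most like that of a receptor were not the other receptor. Likeness was measured as the root mean square difference in log2 CPM, after each gene was centred on its own mean, with 10126 genes compared. Closest to InR1 were CtBP, a transcriptional corepressor (0.16), LOC105186991 and LOC105191991 (0.18 each), LOC105183538, named as an arrestin domain protein (0.20), and pcx, the homolog of Drosophila pecanex (0.21). InR2 ranked 31st among them at 0.29, with a median of 0.88 over all genes. Closest to InR2 were ttk, a zinc finger repressor in Drosophila (0.22), LOC105186991 (0.25), Vps13D, a lipid transfer protein (0.26), shn, a zinc finger factor, and Cerk, a ceramide kinase (0.28 each), and InR1 ranked 6th at 0.29, with a median of 1.02 over all genes. These distances are a description over libraries that share tissue, caste, and depth.

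The ligands and their binding proteins were set beside the receptors. IGF, an insulin-like growth factor homolog, stood at 364, 328, 305, and 284 CPM in gamergate ovaries, against 15.6, 24.7, 29.5, and 6.05 CPM in revertant ovaries and 17.9, 9.06, 24, and 14.8 CPM in worker ovaries. It was called higher in gamergate ovaries against workers by 4.22 and against revertants by 3.99 on the log2 scale (adjusted p = 1.6e-05 and 8.2e-05 in edgeR's test), which is opposite in direction to the receptors. In the brain its direction was the other way, at 2.72, 3.38, 1.57, and 0 CPM in gamergates, against 37.5, 18.7, 14.2, and 9.52 CPM in revertants and 25.1, 11.4, 5.12, and 14.0 CPM in workers. Gamergate brains lay below all others, and IGF was called lower in them than in revertants, at −3.38 on the log2 scale (adjusted p = 8.5e-04 in edgeR's test). The gamergate values rest on 5, 6, 3, and 0 counts, against 37 to 228 counts in revertants and 19 to 116 in workers. The size of this fold change is therefore uncertain. IGF did not pass the filter on low counts in gamergate against worker brains. Ins, the insulin homolog, stood at 33.8, 46.8, 37.6, and 31.3 CPM in gamergate brains, against 12.0, 26.1, 24.3, and 9.27 CPM in revertant brains and 13.0, 8.4, 14.3, and 13.3 CPM in worker brains. The castes did not overlap between gamergates and the others, and Ins was called higher by 1.58 against workers and 1.01 against revertants on the log2 scale (adjusted p = 0.0064 and 0.013 in edgeR's test).

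Imp-L2, a secreted binding protein that restrains insulin signaling in Drosophila, went in opposite directions in the tissues. It stood at 65.0, 46.7, 52.6, and 48.1 CPM in gamergate ovaries and 12.1, 12.2, 6.0, and 15.8 CPM in worker ovaries, but at 19.6, 23.1, 26.1, and 21.2 CPM in gamergate brains and 55.6, 51.0, 66.8, and 47.9 CPM in worker brains. The log2 fold change of gamergates against workers was 2.23 in the ovary and −1.3 in the brain (adjusted p = 2.5e-04 and 0.0055 in edgeR's test). ALS, the homolog of the acid-labile subunit that binds insulin-like peptides, stood at 162, 166, 111, and 78.8 CPM in gamergate ovaries, against 4.55, 7.87, 6.29, and 4.78 CPM in worker ovaries. In the brain its log2 fold change of 0.12 did not pass (adjusted p = 0.859).

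Of the 32 other pathway genes, all were tested in the ovary between gamergates and workers, and 7 were called higher and 14 lower (29.4% and 28.9% of all genes tested). The list had a median log2 fold change of −0.33, against −0.01 for all genes tested. By role, 9 of the 15 genes of the AKT branch were called lower and 2 higher, 3 of 6 substrates and adaptors lower, and 2 of 5 genes of the MAPK branch lower and 1 higher. Against revertants the counts were 7 higher and 15 lower of 32 (28.7% and 29% of all genes). In the brain 1 of 30 was called higher and 1 lower between gamergates and workers (0.33% and 0.719% of all genes). Between gamergates and revertants 8 of 31 were higher and 12 lower (27.4% and 29.9% of all genes). That split was 12 higher and 10 lower when libraries were scaled by size alone. With the term for size class 0 of 31 were called, Ins and IGF included, in a fit that called 73 of 9148 genes.

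Among the members called lower whose castes did not overlap, Raf had the most negative fold change. It is the kinase that Ras activates, and stood at 49.9, 47.5, 55.1, and 50.9 CPM in gamergate ovaries, against 118, 122, 154, and 85.6 CPM in worker ovaries (log2 fold change −1.27, adjusted p = 3.6e-04 in edgeR's test). Pi3K21B, the adaptor subunit of phosphatidylinositol 3-kinase, was at −1.15 and Pdk1, a kinase of AKT, at −0.75 (adjusted p = 8.0e-04 and 0.031). Called higher with no overlap were Thor, the translation inhibitor 4E-BP (0.84), ksr, the scaffold of the MAPK cascade (0.70), and a gene named insulin-degrading enzyme-like, at 123, 148, 75.4, and 106 CPM in gamergate ovaries and 0 to 4 counts in each worker ovary.

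In the brain, Pi3K21B, Pdk1, and Raf shared the split of the worker libraries seen for the receptors. Pi3K21B stood at 170, 213, 194, and 205 CPM in gamergate brains, against 392, 201, 393, and 184 CPM in worker brains, and Pdk1 at 103, 96.4, 85.2, and 95 CPM in gamergate brains, against 201, 76.2, 188, and 74.5 CPM in worker brains. Raf stood at 146, 123, 124, and 150 CPM in gamergate brains, against 175, 120, 179, and 120 CPM in worker brains. Workers 2 and 4, the worker brains under 3500000 counts, were the low ones for each.

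**Figure D5:**
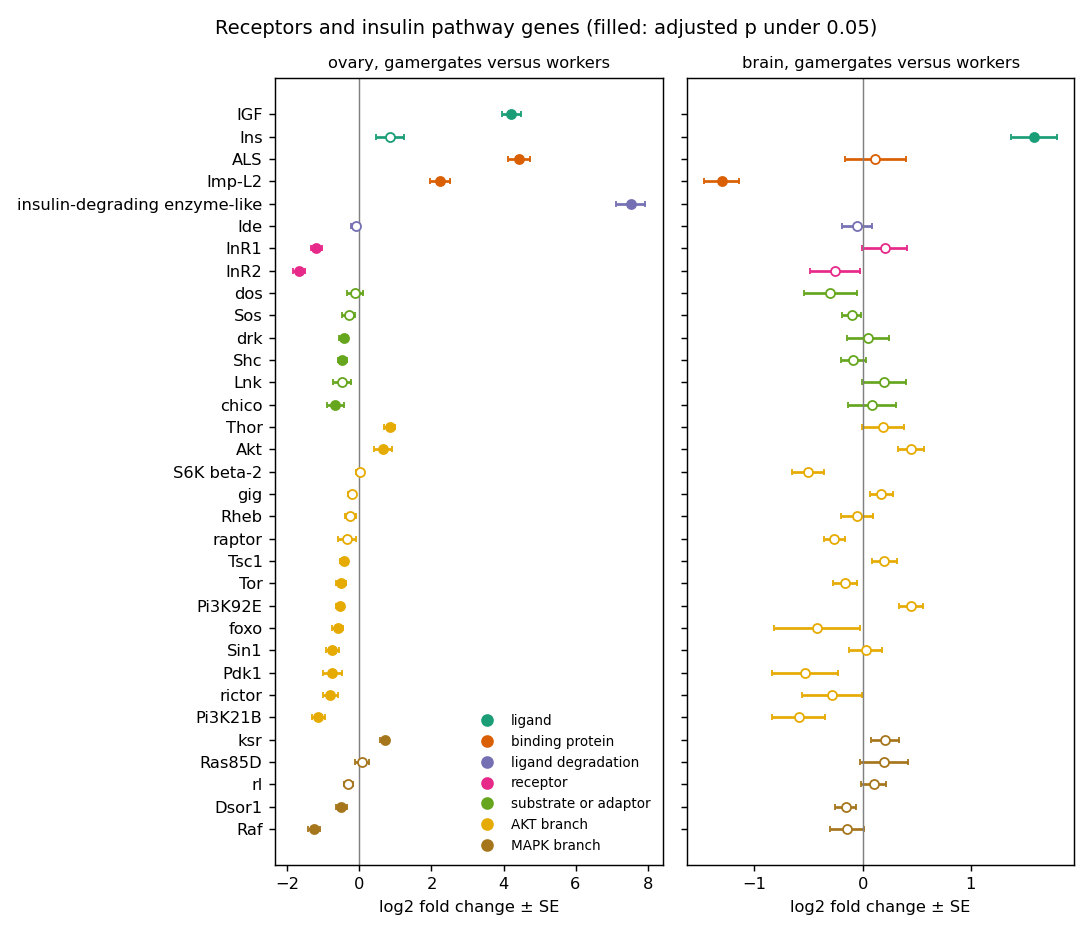
The log2 fold changes (horizontal axis, ± standard error) of the receptors and 31 of the 32 insulin pathway genes in gamergates against workers are plotted for the ovary (left) and the brain (right), coloured by role; filled points passed an adjusted p of 0.05 and the 2 panels have different scales. In the ovary ligands and binding proteins lie right of 0, the receptors left of it, and in the brain Ins at 1.58 and Imp-L2 at −1.3 are the filled points.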

How the data were processed

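PolyA RNA of single ants was made into dUTP strand-specific libraries and sequenced on an Illumina HiSeq, and per the labels reads were processed with Trimmomatic, STAR 2.5.3a, and edgeR. The authors deposited a table of raw gene counts for each tissue, from alignments to genome version 8.5, with no normalization. The counting program, the annotation release, the use of strand, and the treatment of multi-mapping reads are not given in the sources used here, so reads shared by the paralogous receptors could have been split or dropped. RefSeq lists 4 transcripts for InR1 and 9 for InR2, and its table (Hsal_v8.6) named 12632 of the 12654 identifiers. No coordinates were taken from it.

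Caste, tissue, and replicate number came from the labels. With edgeR 4.0.16 in R 4.3.3 (TMM, filterByExpr), each pair of castes in a tissue was fitted by itself with the quasi-likelihood test, and a gene was called where its p, adjusted over all genes tested by the Benjamini-Hochberg method, was under 0.05. CPM and log2 CPM (prior count 2) used TMM factors of the tissue, or of all 24 libraries where tissues are set side by side. Differences between tissues were tested as an interaction of tissue and caste. The log2 ratio of InR1 to InR2 used counts plus 0.5, and was compared by exact permutation tests in scipy 1.17.1. Wilson intervals (95%) of the InR1 share cover counting error alone, as PCR copies were not marked by molecular identifiers. The receptors had 178 to 3058 counts in every library. The test was tested on simulated counts with known changes.

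Pathway and marker lists were matched by RefSeq symbols or protein names. The members, the lists, and the size limit of 3500000 counts were chosen with earlier results of these data known. Named genes were InR1 and InR2, Ins, IGF, Imp-L2, and ALS, up to 4 pathway members per direction with the largest fold change among those called without overlap in gamergate against worker ovaries, and the 5 genes most like each receptor. One of these pathway members is not reported here. Alternatives were other scalings and filters, DESeq2 1.42.0, edgeR's likelihood ratio test, one fit of 12 libraries, a term for library size class or one class only, a threshold of 0.01, the replicate number as a block, and each library left out.

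No pair of libraries of one group was a copy of another, with a chi-square per degree of freedom of at least 2.60. The series' design text says that the tissues came from the same individuals but not that replicate numbers mark them. Deviations from the group means correlated between brain and ovary libraries of the same number with 0.15 to 0.26 in all 4 revertants. Each of these correlated best with its own number, as did 3 of 4 in gamergates, at 0.03 to 0.08. Worker and revertant ovaries came from different ants. Yet libraries of the same number correlated there at 0.26, −0.18, 0.49, and 0.39, and 3 of 4 correlated best with their own number. These correlations therefore cannot show that the numbers mark ants. The main tests did not pair libraries by number in any caste. They treated brain and ovary libraries as separate ants, and the block was fitted only as an alternative. Between the other pairs of groups at least 1 correlation was under 0.1. Where nothing marks separate ants beyond the labels, p values measure the spread between these libraries. All 24 columns were matched to samples, and the 12 fat body samples were not analysed here.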

Additional observations from a re-analysis of the deposited data

Results flagged for a closer look

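In gamergate ovaries the lowest log2 ratio of InR1 to InR2, 0.25 in replicate 1, stood apart from the other 3, with a gap of 0.834 of the group's whole range, above Dixon's critical value at 95% for 4 samples. Of 18 groups tested in this way 1 was marked, and chance marks about 1 in 20. Without this library the mean log2 ratio of gamergates exceeds that of workers by 0.58 and that of revertants by 0.73.

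The effect of caste on the receptors differed between ovary and brain by the interaction term of edgeR's quasi-likelihood test. For gamergates against workers the difference in log2 fold change was −1.35 for InR1 and −1.36 for InR2, and for gamergates against revertants it was −1.14 for InR1 and −1.26 for InR2, with adjusted p values from 6.1e-04 to 0.0032. All 4 rest on gamergate libraries in which ovaries exceeded 3500000 counts and brains did not, and library size was not a term in these fits.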

How the results depend on the processing

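In the ovary, InR1 and InR2 stayed called lower in gamergates against workers (11 alternatives each, −1.38 to −0.98 for InR1 and −1.87 to −1.57 for InR2) and against revertants (12 each, −1.45 to −1.13 and −2.09 to −1.87). The 4 differences in log2 ratio between gamergates and the other castes ranged from 0.42 to 0.83 over their alternatives, and from 0.40 to 0.75 with each library left out. Several fold changes in the brain moved with the treatment of library size. In gamergates against workers, InR1 became 0.72 and was called with a size term and in libraries under 3500000 counts, and InR2 turned to 0.29 in both. In gamergates against revertants with the size term, InR1 became 0.87 and InR2 0.39; InR1 also turned positive with upper quartile scaling (0.070), library size only (0.16), and no filter (0.0046). In revertants against workers, InR1 turned to −0.15 with the term and −0.14 in libraries over that size, and InR2 to −0.10 and −0.095. The cause was not tested. With library size only, ovary over brain was called in revertants (0.61 for each receptor) and for InR1 in workers (0.67); that scaling put the median of all genes at 0.40 in revertants and 0.30 in workers, against 0.04 and 0.12 with TMM, and at −0.38 against 0.06 for the tissue difference in gamergates against revertants. The log2 ratio differed by 0.060 between revertant and worker ovaries under 3500000 counts and by −0.18 between revertant ovaries and brains over it, from fewer libraries.

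The replicate block changed no call of a receptor. It turned the tissue difference in revertants against workers for InR2 to −0.073, and DESeq2's size factors (−0.013) and DESeq2 (−0.011) turned it too. For the ratio no comparison was called without the block, and with it none could be. Each of the 4 gamergate differences then had p = 0.125 (exact sign-flip test, two-sided), the smallest value that 4 pairs can give. Leaving out each library turned the sign of no called difference. It turned that of InR1 in revertant against worker ovaries (−0.0030 to 0.27), InR1 in gamergate against revertant brains (−0.055 to 0.053), the log2 ratio between revertant ovaries and brains (−0.095 to 0.089), and the tissue difference in revertants against workers (−0.26 to 0.054 for InR1, −0.19 to 0.20 for InR2). Called lower pathway members, 14 in gamergate against worker ovaries, numbered 14 to 19 over scalings, 10 with no filter, 9 at an adjusted p under 0.01, and 10 to 15 with a library left out (10 without gamergate 4). Against revertant ovaries, 15 became 10 with the replicate block or no filter, 9 at 0.01, and 9 to 14 with a library left out (9 without gamergate 2). In gamergate against revertant brains the block left 7 higher and 12 lower, against 8 and 12, and an adjusted p under 0.01 left 4 and 11. Over all genes, the 89 called between gamergate and worker brains were 23 at 0.01, 51 with the block, 332 by DESeq2, 244 with the size term, and 850 without worker 4. Of the 5 genes nearest each receptor, 1 was shared with the 5 nearest over the 12 ovary libraries and 0 over the 12 brain libraries. With 4 libraries a group, exact tests of the ratio cannot pass after adjustment unless more of the 9 comparisons reach 0.0286. No receptor exon lengths were used, so levels of InR1 and InR2 cannot be set against each other.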
